A study of Mus musculus with 10 samples.

Results

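The regulators described here are genes that couple exercise and energy demand to the making of mitochondria. The set was given by name and holds 9 genes: Ppargc1a, Ppargc1b, Esrra, Tfam, Nrf1, Sirt1, Sirt3, Fndc5 and Nr4a3. Of these, 8 were measured by a probe set annotated with 1 gene symbol, among 29766 such genes in all. The only probe set of Esrra also carries the symbol of a microRNA gene, Mir6990, so no value is given for it. The arrays were made from inner ear tissue, labelled as cochlea. The mice were CBA/CaJ, a strain that loses hearing late in life and at 6 months of age still hears normally. The arrays were made at 6 months, and no hearing measurement is among the values used here. All mice were housed singly. The 5 runner samples came from cages with a running wheel and the 5 control samples from cages without one. No further allele or agent is named for either group, and the distance run is not among the labels. The series asks what lasting wheel running does to age-related loss of hearing, and the arrays compare young mice with and without a wheel.

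In skeletal muscle and brown fat, the coactivators PGC-1 alpha (Ppargc1a) and PGC-1 beta (Ppargc1b) bind nuclear receptors such as ERR alpha (Esrra) and factors such as nuclear respiratory factor 1 (Nrf1). Together these factors drive nuclear genes of the respiratory chain and Tfam, whose protein packages and transcribes mitochondrial DNA. The deacetylase SIRT1 acts on PGC-1 alpha, and SIRT3 acts on enzymes inside mitochondria. Fndc5 encodes the precursor of irisin, and Nr4a3 an orphan nuclear receptor that is induced within hours of exercise in muscle. Hair cells, the stria vascularis and auditory neurons are all tissues of high mitochondrial demand.

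The stretches upstream of 3 of these genes are shown because each is a known meeting point of the pathway's signals. Nr4a3 and Ppargc1a are known targets of CREB, a factor activated by cAMP and calcium, and Tfam is a known target of GABP, also called nuclear respiratory factor 2. Each stretch is the 250 bases before the gene's start in RefSeq (assembly GRCm38.p6), read 5′ to 3′ on the gene's strand. Capitals mark TGACG on either strand, the core of the cAMP response element, in the first pair, and CCGGAAG on either strand, a GABP motif, in Tfam.
Nr4a3: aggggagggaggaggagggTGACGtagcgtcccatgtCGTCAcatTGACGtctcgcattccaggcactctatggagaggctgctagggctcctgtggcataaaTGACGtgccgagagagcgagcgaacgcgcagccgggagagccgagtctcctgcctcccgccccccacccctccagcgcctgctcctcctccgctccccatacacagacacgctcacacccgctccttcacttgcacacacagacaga
Ppargc1a: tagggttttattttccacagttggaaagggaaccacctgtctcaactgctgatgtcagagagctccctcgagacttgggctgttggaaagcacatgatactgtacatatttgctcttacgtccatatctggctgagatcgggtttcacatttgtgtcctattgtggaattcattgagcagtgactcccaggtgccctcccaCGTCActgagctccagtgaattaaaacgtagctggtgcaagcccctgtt
Tfam: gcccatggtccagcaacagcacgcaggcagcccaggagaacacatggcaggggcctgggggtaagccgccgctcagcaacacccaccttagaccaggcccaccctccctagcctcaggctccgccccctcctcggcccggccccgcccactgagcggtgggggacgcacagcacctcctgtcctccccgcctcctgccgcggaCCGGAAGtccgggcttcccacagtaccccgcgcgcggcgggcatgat
The Nr4a3 stretch lies at chr4:48045055-48045304 on the + strand and holds 4 matches. The Ppargc1a stretch lies at chr5:51567726-51567975 on the - strand and holds 1 match, which begins 49 bases before the start. The Tfam stretch lies at chr10:71238045-71238294 on the - strand and holds 1 match, which begins 47 bases before the start. Of 32851 stretches of the same length, 17.8% held TGACG at least once, 0.137% held it 4 or more times, and 6.91% held CCGGAAG. The palindrome CGCATGCG, the core of the nuclear respiratory factor 1 site (1.55% of stretches), and the ERR motif TCAAGGTCA (0.387%) were searched on both strands, and their letters were in none of the 9 stretches found for 7 of the 8 measured genes, all but Ppargc1b. Among the stretches not shown, that of Sirt1 and 1 of those of Sirt3 each held 1 match to TGACG, and the same Sirt3 stretch held 1 to CCGGAAG. These matches describe the letters and no binding was measured.

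Of the 8 regulators, 0 differed between runners and controls in the fit over all genes (limma adjusted p between 0.774 and 0.993). At an unadjusted p under 0.05 the count was also 0 of 8. Over all genes the first threshold was passed by 0.00672% (2 of 29766) and the second by 7.13%. Values are log2 levels after RMA, which adjusts background, makes array distributions alike and summarizes probes, so 1 unit is a doubling of signal. Runner minus control was above 0 for 5 regulators and below 0 for 3, and their median was 0.012 against 0.00091 over all genes. With each array centred on its median, 6 were above 0, as were 61.4% of all genes. The groups overlapped for all 8, whereas 0.927% of all genes had groups that did not overlap. RNA from whole tissue cannot tell fewer cells of a type apart from less RNA per cell. Whether the 5 samples of a group are 5 animals is not stated, so each p-value rests on a spread between samples that could be technical only.

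**Figure D1:**
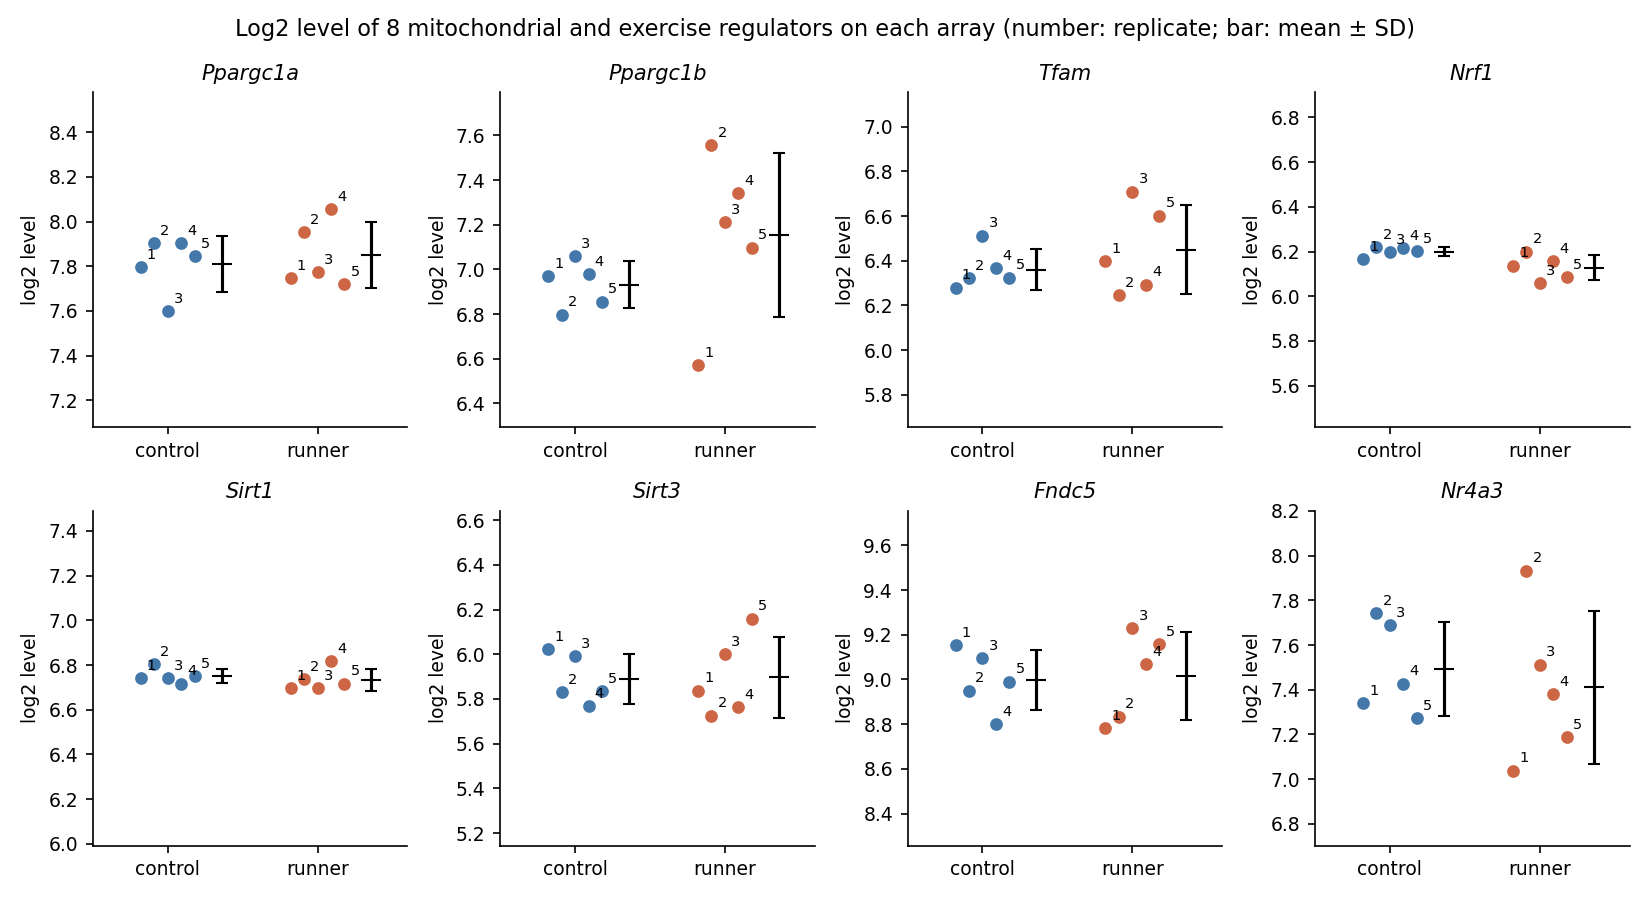
Log2 level (vertical axis, a span of 1.5 log2 units in each panel) of the 8 regulators on each array, controls left and runners right; numbers name the replicate and bars give the mean ± SD of 5 arrays. The groups overlap in every panel, Nrf1 and Sirt1 spread least, and runner 1 lies below all other arrays for Ppargc1b, Nr4a3 and, narrowly, Fndc5.

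Median log2 levels per array ran from 5.35 to 5.43, and Pearson correlations between arrays from 0.991 to 0.997 across genes. The labelled tissue was checked against markers. The cochlear matrix gene Coch was at a mean of 11.2 and the gap junction gene Gjb2 at 8.50, while the outer hair cell motor gene Slc26a5 was at 4.34. The fast muscle myosin Myh4, the cerebellar receptor subunit Gabra6 and the neutrophil gene S100a8 were at 9.19, 10.7 and 11.5. The scale has no true 0, and levels of different probe sets do not compare. All 13 measured cochlea markers were lower in runners (5 at an unadjusted p under 0.05), as were all 8 of blood and marrow (4), while 9 of 10 fat markers were higher (6), with 0 past the adjusted threshold in these lists. At that unadjusted p, 3.21% of all genes were higher and 3.92% lower. Muscle markers split, 5 higher and 7 lower, with 0 at either threshold. Brain markers were higher in 7 of 9, with 0 at either threshold. Among the runners, runner 1 had the highest cochlea (6.86) and blood (8.88) means and the lowest brain (8.52) and fat (5.56) means. No other array was left out alone for these lists. Leaving out runner 1 was thus bound to widen the differences of these means, and it moved the counts. At an unadjusted p under 0.05 there were then 13 cochlea and 7 blood markers lower and 7 fat and 3 brain markers higher. The adjusted threshold was passed by 1 cochlea, 4 blood and 2 fat markers. Over all 29766 genes, 1748 were then higher and 2558 lower at that unadjusted p, and 0.333% passed the adjusted threshold. Marker means are given beside the regulators whose correlation with them had an unadjusted permutation p under 0.05 by Pearson's r or by rank. The brain mean is also given beside Fndc5, though it met neither condition. The part of these tissues in the results was not tested.

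Ppargc1b, the coactivator known for basal mitochondrial gene expression in fat and muscle, had the largest difference of the set. Its log2 levels were 6.57, 7.55, 7.21, 7.34 and 7.10 in runners 1 to 5 and 6.97, 6.80, 7.06, 6.98 and 6.86 in controls 1 to 5. Runners 2 to 5 lay above every control, while runner 1 was the lowest of the 10 arrays. The means were 7.16 ± 0.37 (SD, n = 5) in runners and 6.93 ± 0.10 (SD, n = 5) in controls. The difference was 0.22 ± 0.14 (SE), a 1.17-fold change with a 95% interval from -0.088 to 0.53 on the log2 scale, and it did not pass (limma adjusted p = 0.774). Of the single arrays left out, runner 1 moved this value most. Without it the difference was 0.37 ± 0.091 (SE; limma adjusted p = 0.0863), and 0.333% of all genes then passed. Without control 1 as well it was 0.38 ± 0.10 (SE; limma adjusted p = 0.0897), where 1.43% of all genes passed. Without runner 2 it was 0.12. The order with runners 2 to 5 above all controls, singled out after the values were seen, was held by 2.49% of all genes, and by 1.09% with runner 1 lowest as well.

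Ppargc1b was set against the tissue markers over the 10 arrays. Its correlation with the mean of 9 brain markers was r = 0.810 (permutation p = 0.00479, adjusted 0.0774; rho = 0.733, permutation p = 0.0207, adjusted 0.248). Without the 2 arrays farthest from the median of the brain mean r was 0.634, and with group means removed it was 0.780. With the mean of 13 cochlea markers the correlation was r = -0.793 (permutation p = 0.00538, adjusted 0.0774). The rank correlation was rho = -0.915 (permutation p = 0.0005, adjusted 0.024), and r was -0.834 without the 2 farthest arrays and -0.744 with group means removed. The brain mean ran from 8.52 to 9.01 in runners and 8.65 to 8.83 in controls, and the cochlea mean from 6.32 to 6.86 and 6.60 to 6.81. Runner 1 had the lowest brain mean and the highest cochlea mean of all arrays. With fat markers, among them the thermogenic gene Ucp1 (difference 1.93 ± 0.54 SE, limma adjusted p = 0.569), r was 0.566 (permutation p = 0.0889, adjusted 0.316; rho = 0.685, permutation p = 0.0354, adjusted 0.262), 0.648 without the 2 farthest arrays and 0.418 with group means removed. The fat mean ran from 5.56 to 6.36 in runners and 5.17 to 5.64 in controls. With the mean of 8 blood and marrow markers r was -0.641 (permutation p = 0.047, adjusted 0.251; rho = -0.661, permutation p = 0.0447, adjusted 0.262), -0.710 without the 2 farthest arrays and -0.535 with group means removed. The part of these tissues in the Ppargc1b values was not tested.

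**Figure D2:**
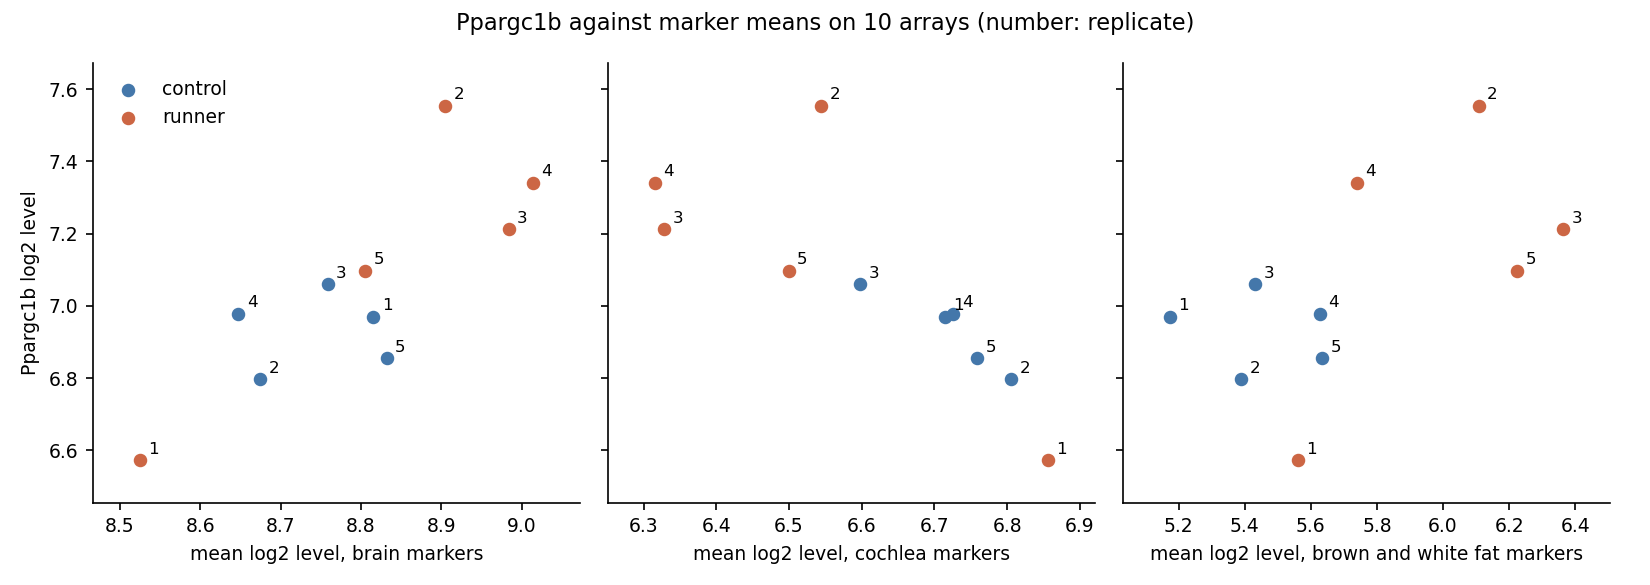
Ppargc1b log2 level (vertical axis) against the mean log2 level of brain, cochlea and fat markers (horizontal axes) on the 10 arrays; numbers name the replicate. Runner 1 lies at the low end of the brain axis and the high end of the cochlea axis, with the lowest Ppargc1b level, 6.57.

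Ppargc1a, the exercise-induced coactivator, had log2 levels of 7.75, 7.95, 7.77, 8.06 and 7.72 in runners 1 to 5 and 7.80, 7.90, 7.60, 7.90 and 7.85 in controls 1 to 5. Runner 4 was the highest array and control 3 the lowest, and the groups lay across each other. The difference was 0.041 ± 0.082 (SE), with a 95% interval from -0.14 to 0.22 (limma adjusted p = 0.940), and it turned below 0 without runner 4 or without control 3. The array gives 1 value for the gene, so its alternative first exons, which exercise and cold use differently in muscle, were not measured apart. Ppargc1a was also set against the main axis of variation between arrays. The first principal component of all genes accounted for 28.2% of the variance, and its correlation with Ppargc1a was r = -0.796 (permutation p = 0.00628, adjusted 0.0774; rho = -0.758, permutation p = 0.0151, adjusted 0.248). Without the 2 farthest arrays r was -0.573. That of Ppargc1b was r = -0.795 (permutation p = 0.00645, adjusted 0.0774; rho = -0.552, permutation p = 0.106, adjusted 0.402), but -0.430 without the 2 farthest arrays.

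Nrf1, a DNA-binding activator of respiratory chain genes and distinct from the stress factor gene Nfe2l1, varied little. Its levels were 6.14, 6.20, 6.06, 6.16 and 6.08 in runners 1 to 5 and 6.17, 6.22, 6.20, 6.21 and 6.20 in controls 1 to 5. Runners 1, 3, 4 and 5 lay below every control and runner 2 lay among them, an order whose share over all genes was not counted. The difference was -0.072 ± 0.049 (SE), with a 95% interval from -0.18 to 0.033 (limma adjusted p = 0.779). Its sign held under every alternative run, with differences from -0.090 to -0.055 when single arrays were left out. With the mean of 8 blood and marrow markers, which ran from 8.38 to 8.88 in runners and 8.62 to 8.99 in controls, r was 0.746 (permutation p = 0.0122, adjusted 0.112; rho = 0.612, permutation p = 0.0675, adjusted 0.324). It was 0.393 without the 2 arrays farthest from the median of the blood mean, 0.516 with group means removed and 0.848 without runner 1. With the fat mean r was -0.656 (permutation p = 0.0402, adjusted 0.251) and rho was -0.515 (permutation p = 0.134, adjusted 0.402). Without the 2 arrays farthest from the median of the fat mean r was 0.104, so its value depended on those arrays, whose removal also narrows the range. With group means removed r was -0.295. The part of these tissues in the Nrf1 values was not tested.

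Tfam, the packaging and transcription factor of mitochondrial DNA, had levels of 6.40, 6.25, 6.71, 6.29 and 6.60 in runners 1 to 5 and 6.28, 6.32, 6.51, 6.37 and 6.32 in controls 1 to 5. Runners 3 and 5 were the highest arrays and runner 2 was the lowest. The difference was 0.089 ± 0.090 (SE), with a 95% interval from -0.11 to 0.28 (limma adjusted p = 0.861), and it was 0.024 without runner 3. Over the arrays the correlation of Tfam with the mean of 12 skeletal muscle markers was r = 0.737 (permutation p = 0.014, adjusted 0.112; rho = 0.648, permutation p = 0.0492, adjusted 0.262), 0.557 without the 2 farthest arrays and 0.793 with group means removed. The muscle mean ran from 7.73 to 8.62 in runners, where runner 3 was highest, and from 7.70 to 8.39 in controls. Its part in the Tfam values was not tested.

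The sirtuins are NAD-dependent deacylases. Sirt1, the nuclear member that acts on PGC-1 alpha, was at 6.70, 6.74, 6.70, 6.82 and 6.72 in runners 1 to 5 and 6.74, 6.80, 6.74, 6.72 and 6.75 in controls 1 to 5. All 10 arrays lay within a narrow band, with a difference of -0.018 ± 0.049 (SE) and a 95% interval from -0.12 to 0.088 (limma adjusted p = 0.961). With each array centred on its median the sign turned (0.0058), while the median of all genes moved to 0.024. Sirt3, the main mitochondrial deacetylase, was at 5.84, 5.73, 6.00, 5.76 and 6.16 in runners 1 to 5 and 6.02, 5.83, 5.99, 5.77 and 5.84 in controls 1 to 5. Runner 5 was highest and runner 2 lowest, and the controls lay within the range of the runners. The difference was 0.0073 ± 0.087 (SE), with a 95% interval from -0.18 to 0.20 (limma adjusted p = 0.993), and its sign changed when any of 5 single arrays was left out.

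Nr4a3 had levels of 7.04, 7.93, 7.51, 7.38 and 7.19 in runners 1 to 5 and 7.34, 7.74, 7.69, 7.43 and 7.27 in controls 1 to 5. Runner 2 was the highest array and runners 1 and 5 were the lowest. The difference was -0.084 ± 0.15 (SE), with a 95% interval from -0.41 to 0.24, the widest of the set (limma adjusted p = 0.931). It was -0.21 without runner 2 and 0.0091 without runner 1. The other receptors of its family, both early genes of neural and muscle activity, also overlapped between groups. Nr4a1 was at 8.51, 8.89, 8.53, 8.92 and 8.31 in runners 1 to 5 and 9.11, 9.08, 8.71, 8.31 and 8.99 in controls 1 to 5, a difference of -0.21 ± 0.16 (SE; limma adjusted p = 0.799). Nr4a2 differed by -0.23 ± 0.18 (SE; limma adjusted p = 0.808), with runners from 7.45 to 8.60 and controls from 7.95 to 8.46. All 3 differences were below 0 as tested, that of Nr4a3 not without runner 1.

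Fndc5, which encodes a membrane protein cleaved to irisin and is expressed in muscle, heart and brain, was at 8.78, 8.83, 9.23, 9.07 and 9.16 in runners 1 to 5. Controls 1 to 5 were at 9.15, 8.95, 9.09, 8.80 and 8.99. Runner 3 was the highest array and runner 1 the lowest. The difference was 0.017 ± 0.096 (SE), with a 95% interval from -0.19 to 0.23 (limma adjusted p = 0.983). It turned below 0 without runner 3, runner 5 or control 4. With the mean of blood and marrow markers Fndc5 was at r = -0.661 (permutation p = 0.0437, adjusted 0.251; rho = -0.745, permutation p = 0.0179, adjusted 0.248), -0.409 without the 2 farthest arrays and -0.862 with group means removed. With the brain mean r was 0.616 (permutation p = 0.0612, adjusted 0.294; rho = 0.539, permutation p = 0.115, adjusted 0.402), and with the cochlea mean -0.599 (permutation p = 0.0709, adjusted 0.309; rho = -0.661, permutation p = 0.0443, adjusted 0.262). Without the 2 farthest arrays of each these were 0.489 and -0.443. The part of these tissues in the Fndc5 values was not tested.

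**Figure D3:**
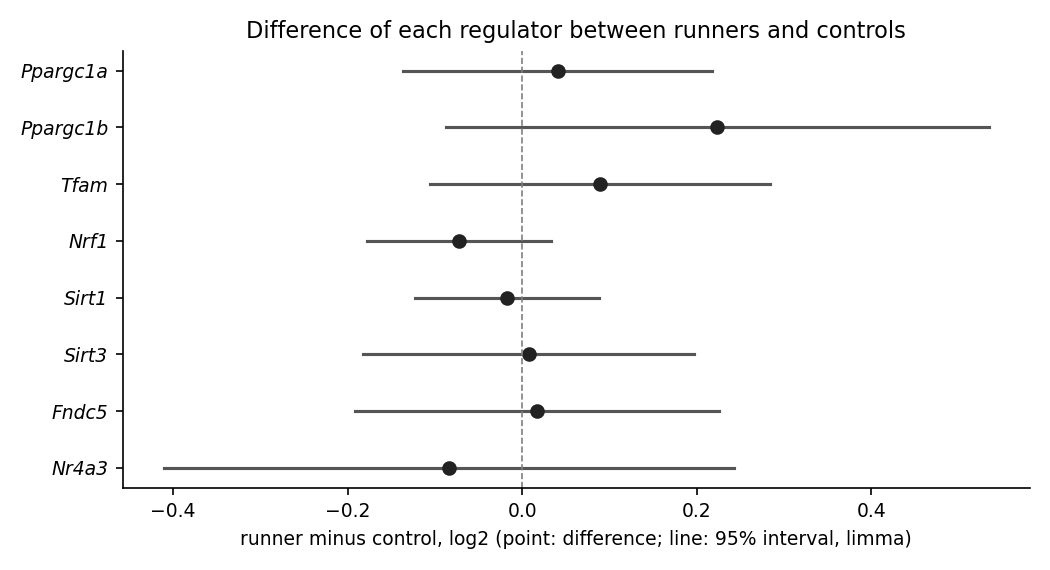
Runner minus control on the log2 scale (horizontal axis) for the 8 regulators (vertical axis), with the 95% interval from limma. Every interval includes 0; that of Ppargc1b reaches from -0.088 to 0.53 and that of Sirt1 from -0.12 to 0.088.

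The genes around these regulators were taken from 7 lists of partners, signals, targets and related factors, 84 of 94 measured. Of the 84, 0 passed the adjusted threshold, and at an unadjusted p under 0.05 there were 3 higher and 3 lower. Over all genes those shares were 0.00672% for the adjusted threshold and 3.21% and 3.92% for the unadjusted one. The list differences had medians between -0.22 and 0.068.

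Among 14 partner factors, nuclear receptors and coregulators that work with PGC-1, 5 were above 0 and 9 below, with a median of -0.016. The median was 0.0056 with repeated quantile normalization and 0.0071 with median centring, each with 8 of 14 above 0. Over all genes the medians were then 0.0018 and 0.024, with 50.9% and 61.4% above 0. Mef2c, a myocyte and neuronal transcription factor that drives Ppargc1a in muscle, was the 1 gene at an unadjusted p under 0.05 (-0.15 ± 0.066 SE, limma adjusted p = 0.676). Nfe2l2, the master factor of antioxidant genes (-0.11 ± 0.075), and Yy1 (-0.092 ± 0.070) came next. The receptor Esrrb, which the marginal cells of the stria vascularis need, differed by -0.075 ± 0.080 and Esrrg, of the same family, by 0.026 ± 0.067 (-0.011 without control 4). The GABP subunit gene Gabpa differed by -0.036 ± 0.058 and Pprc1, the third member of the PGC-1 family, by -0.045 ± 0.055. The adjusted p of these 7 genes lay between 0.676 and 0.956.

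Of 16 genes of upstream signalling, which include the subunits of AMP-activated kinase, 7 were above 0 and 9 below, with a median of -0.018. With median centring it was 0.0051, against 0.024 over all genes. Creb1, the gene of the factor whose core motif is marked above, differed by 0.15 ± 0.062 (SE; limma adjusted p = 0.650). Its levels were 8.36, 8.34, 8.43, 8.35 and 8.24 in runners 1 to 5 and 8.04, 8.15, 8.24, 8.31 and 8.22 in controls 1 to 5. Runners 1 to 4 lay above every control and runner 5 among them, and how many of all genes share this order was not counted. The kinase subunit genes Prkab1 (-0.12 ± 0.057) and Prkag2 (0.058 ± 0.058) came next, and the catalytic subunit gene Prkaa2 differed by 0.035 ± 0.087, which turned below 0 with array weights and without runner 2 or control 3.

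The 14 genes that copy, repair and transcribe mitochondrial DNA split evenly, 7 above 0 and 7 below, with a median of 0.0072 and 0 at an unadjusted p under 0.05. The polymerase subunit gene Polg2 (0.098 ± 0.073), the elongation factor gene Tefm (0.12 ± 0.097) and Mterf4 (0.071 ± 0.073) had the smallest p, with adjusted p between 0.792 and 0.865. With repeated quantile normalization 11 of the 14 were above 0, against 50.9% of all genes.

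Of 8 other sirtuin and NAD genes, 5 were above 0 and 3 below, with a median of 0.023. Nmnat2, which makes NAD in axons and keeps them from degenerating, differed by 0.29 ± 0.13 (SE; limma adjusted p = 0.679). It was at 8.81, 9.52, 9.28, 9.61 and 9.10 in runners 1 to 5 and 8.96, 8.87, 8.93, 9.07 and 9.04 in controls 1 to 5. As for Ppargc1b, runners 2 to 5 lay above all controls and runner 1 was lowest. Runner 1 also had the lowest brain marker mean, 8.52, and the part of brain in this value was not tested. Without runner 1 the difference was 0.40 (limma adjusted p = 0.0862). Sirt2 (-0.090 ± 0.060) and Nmnat3 (-0.076 ± 0.059) came next.

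Target genes of the PGC-1 pathway were above 0 in 16 of 18, with a median of 0.068 against 0.00091 over all genes, but 1 was at an unadjusted p under 0.05 and 0 passed. Median centring, which moved the median of all genes to 0.024, put the list at 0.092, with 17 of 18 above 0. Over all genes 50.5% were above 0 as deposited and 61.4% with median centring. The 1 gene was Pdk4, the kinase that turns muscle from glucose to fatty acid use. Its levels were 8.12, 8.49, 9.24, 8.67 and 8.55 in runners 1 to 5 and 7.91, 8.06, 7.91, 8.30 and 7.83 in controls 1 to 5. Runners 2 to 5 lay above every control and runner 1 above 4 of 5. The difference was 0.61 ± 0.16 (SE; limma adjusted p = 0.536). Runner 3, the highest in Pdk4, also had the highest muscle (8.62) and fat (6.36) marker means, whose part in this list was not tested. The respiratory chain carrier gene Cycs (0.15 ± 0.096) and the citric acid cycle gene Idh3a (0.092 ± 0.065) were next, with adjusted p of 0.770 and 0.783.

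Of 12 genes of factors secreted by exercising muscle, 7 were above 0 and 5 below, with a median of 0.010. Of these, 2 were at an unadjusted p under 0.05, both lower. Igf1, the growth factor gene, was at 6.30, 6.11, 5.83, 5.91 and 5.97 in runners 1 to 5 and 6.24, 6.44, 6.14, 6.42 and 6.36 in controls 1 to 5. Runners 2 to 5 lay below every control, an order singled out after the values were seen and not counted over all genes. The difference was -0.29 ± 0.091 (SE; limma adjusted p = 0.592). The cytokine gene Il15 differed by -0.16 ± 0.071 (SE; limma adjusted p = 0.687) and Fgf21 by -0.17 ± 0.092 (limma adjusted p = 0.735). Only Igf1, Il15, Metrnl, Sparc and Ctsb of this list had a mean level above 5, and their median, the value of Metrnl, was -0.14.

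**Figure D4:**
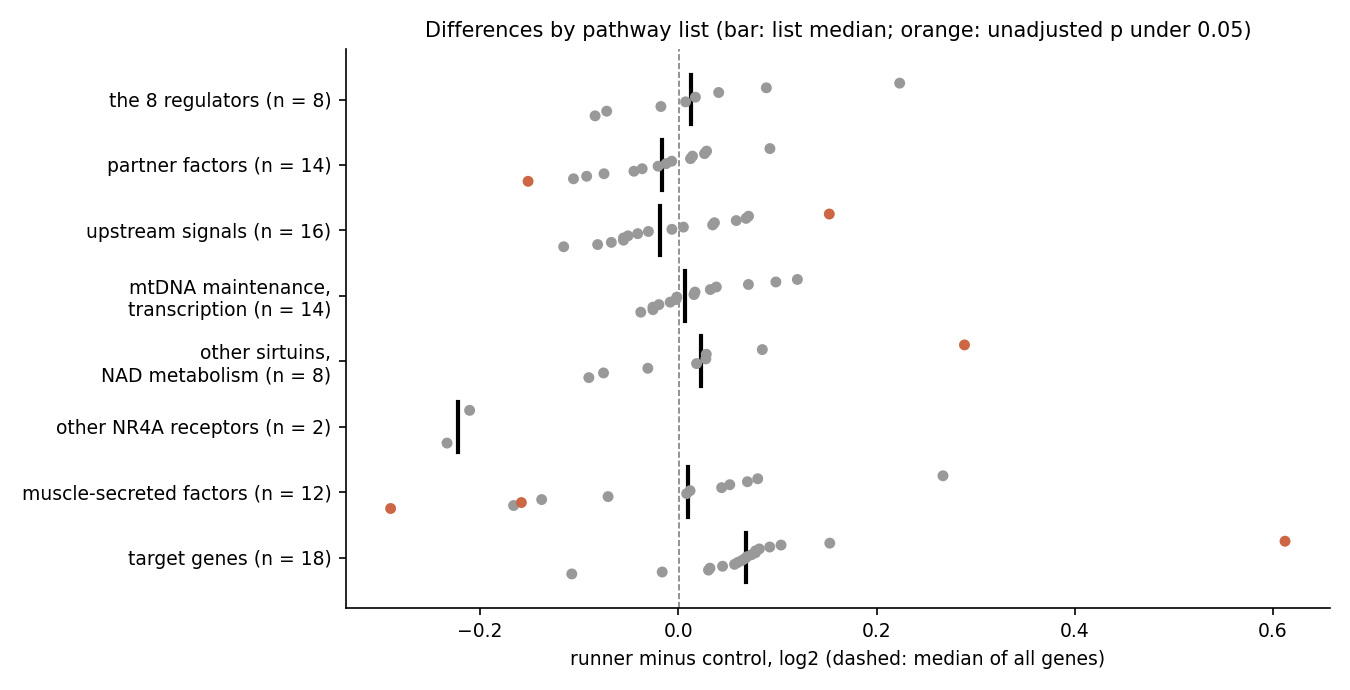
Runner minus control on the log2 scale (horizontal axis) for every measured gene of the 8 regulators and of the 7 pathway lists (rows); black bars are list medians, orange points have an unadjusted p under 0.05, and the dashed line is the median of all genes, 0.00091. The target genes cluster above 0, with a median of 0.068, and 6 of the 84 list genes are orange.

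Pairs of regulators had correlations of both signs over the arrays. Of their 28 pairs, 0 passed a permutation test after adjustment, with Pearson correlations from -0.767 to 0.762. Sirt3 and Fndc5 were highest together at r = 0.762 (permutation p = 0.0127, adjusted 0.139; rho = 0.685, permutation p = 0.0352, adjusted 0.302), and 0.720 without the 2 farthest arrays. Ppargc1a and Sirt3 ran against each other at r = -0.735 (permutation p = 0.0149, adjusted 0.139; rho = -0.830, permutation p = 0.00451, adjusted 0.126), and -0.806 without the 2 farthest arrays. Tfam and Nrf1 were at r = -0.767 (permutation p = 0.0132, adjusted 0.139) and rho = -0.515 (permutation p = 0.133, adjusted 0.372). Without the 2 arrays farthest from the median of Tfam r was 0.018, so its value depended on those arrays, whose removal also narrows the range of Tfam. With group means removed r was -0.807, and without runner 1 it was -0.783. Ppargc1a and Ppargc1b were at r = 0.385 (permutation p = 0.268, adjusted 0.536; rho = 0.261, permutation p = 0.469, adjusted 0.597). Of the 48 relations of the regulators with 5 marker lists and the first principal component, 0 passed by Pearson's r after adjustment and 1 by rank, that of Ppargc1b with the cochlea markers.

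**Figure D5:**
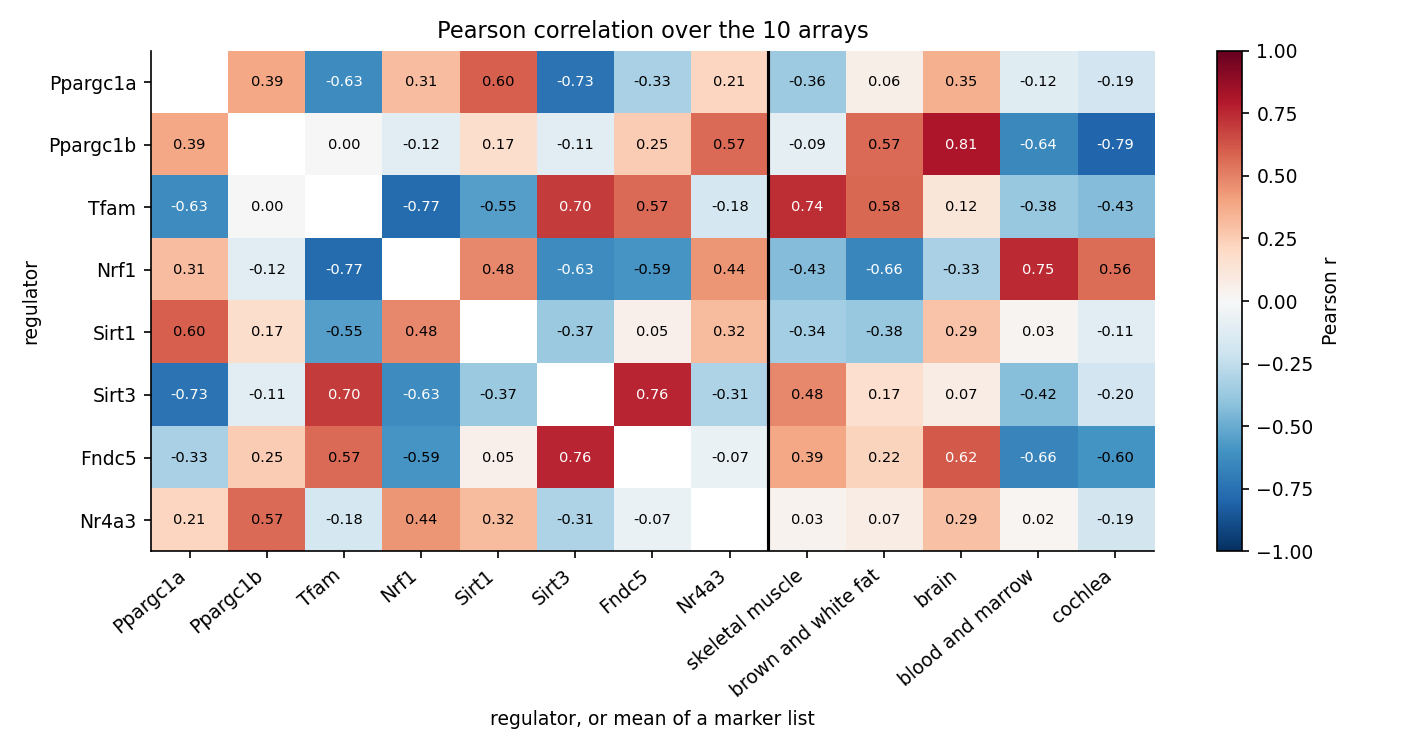
Pearson correlation over the 10 arrays between the 8 regulators (rows) and the regulators and 5 marker list means (columns); blue is negative and red positive. Ppargc1b stands at 0.810 with brain and -0.793 with cochlea markers, and pairs of regulators run from -0.767 to 0.762.

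The genes whose levels were most like each regulator's over the 10 arrays were sought among 12010 genes with a mean log2 level of 6 or more. These correlations were picked as the highest of many and share arrays and normalization, so they are a description. Predicted, non-coding and multigene family symbols were passed over, so a named gene is not always the nearest of all. For Ppargc1a, 2 such symbols ranked above Cnot4, 4 above Prr14l and 14 above Cdkal1. For Sirt1, 4 ranked above Zfp385a and Inpp5e, and for the other regulators at most 1 ranked above any gene named. Ppargc1b was most like Adamts10 (r = 0.971), the secretory granule gene Ptprn (0.971) and the inositol phosphatase gene Inpp5j (0.970). Ppargc1a was most like Cnot4 (0.970), Prr14l (0.967) and Cdkal1 (0.955), and Tfam most like the retinal dehydrogenase gene Aldh1a1 (0.980), Bex1 (0.979) and the mitochondrial ribosome gene Mrpl9 (0.977). For Nrf1 the genes were Cecr2 (0.975), the B cell receptor gene Cd79a (0.941) and Phf1 (0.929). For Fndc5 they were Pcp4 (0.975), a calmodulin regulator of Purkinje cells, Spats2 (0.971) and Ankmy2 (0.968). Nr4a3 was most like the metal-responsive factor gene Mtf1 (0.894), Ddx51 (0.859) and Nab1 (0.849), and Sirt1 most like Gnaz (0.857), Zfp385a (0.784) and Inpp5e (0.780). Sirt3 had a mean below that level and was left out.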

How the data were processed

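Total RNA of 10 frozen, powdered samples was labelled with biotin and put on 1 array each, per the labels' protocols. The authors deposited log2 values per transcript cluster; RMA and Partek are named per the submitters' processing notes, and the genome build is not given in the sources used here. RMA compresses differences of dim genes and hides a shift shared by most genes.

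Of 39295 probe sets, 30130 had 1 gene symbol, 2146 several and 7019 none; 827 symbols were updated to RefSeq names. The brightest probe set of a gene was kept, which left 29766 genes. All were fitted with limma 3.58.1 in R 4.3.3 (two-sided, no covariate besides group, Benjamini-Hochberg threshold 0.05). Correlations were tested with 100000 two-sided permutations in Python 3.11.15 and adjusted within each family. The fit was tested on simulated data. The number of arrays limits precision.

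The regulators and lists were chosen with earlier results of these data known. Named were the regulators, of each list the 3 genes of smallest p (both NR4A receptors), Prkaa2, Esrrb, Esrrg, Gabpa, Pprc1 and the 3 genes most like each regulator, predicted, non-coding and multigene symbols left out. Markers named as examples were chosen after their values were seen. Alternatives were a filter on dim genes, other moderation, repeated normalization, median centring, array weights, averaged probe sets, a replicate block, another threshold and left-out arrays.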

Additional observations from a re-analysis of the deposited data

Results flagged for a closer look

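Of 66 groups of 5 arrays looked at for 33 named genes, 3 held an array set apart from the others by a gap larger than Dixon's 95% critical value, 0.710 of the group's range. Chance flags about 1 in 20 groups. None was a group of the 8 regulators. Il15 was at 5.33 in runner 1, above the next runner at 5.06 (gap 0.754 of the range). Prkaa2 was at 6.62 in control 3, below the next control at 6.89 (gap 0.804). Pprc1 was at 5.59 in runner 3, below the next runner at 5.68 (gap 0.788).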

How the results depend on the processing

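None of the 8 regulators passed the adjusted threshold of 0.05 under any of the alternatives run, and 0 passed 0.10 with all 10 arrays. Ppargc1b came nearest (adjusted p from 0.0863 to 0.992), under 0.10 without runner 1 (0.0863) and without runner 1 and control 1 (0.0897). Ppargc1b, Tfam and Nrf1 kept their direction in all 19 alternatives. Of the 25 other named genes 20 did so, and 3 that the filter on dim genes removed (Polg2, Nmnat3 and Fgf21) did in the other 18. Sirt1 turned to 0.0058 with median centring, which shifts the difference of every gene alike and moved the median of all genes to 0.024. With single arrays left out, Ppargc1a ran from -0.012 to 0.073, Sirt3 from -0.058 to 0.050, Fndc5 from -0.037 to 0.075, Nr4a3 from -0.21 to 0.0091, Prkaa2 from -0.031 to 0.073 and Esrrg from -0.011 to 0.065. Prkaa2 was at -0.0091 with array weights. The cause of the turns with left-out arrays or array weights was not tested. The count of all genes past the threshold was 0 higher and 2 lower. It was 5 and 10 with array weights, 0 and 1 without moderation, 134 and 292 without runner 1 and control 1, and 0 to 44 higher and 2 to 55 lower with single arrays left out, the most without runner 1. The replicate numbers were shared by both groups, and deviations of same-numbered arrays correlated from -0.25 to 0.277. Arrays of different numbers were not compared, so these values do not decide whether the numbers pair the arrays. With the replicate block 0 genes were higher and 2 lower, 0 regulators passed, and Ppargc1b stayed at 0.22. Signal over background was not given, so no detection limit is known.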
